A study of Mus musculus with 18 samples.

Results

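The levels of 10 genes that bind metal ions or remove peroxide and superoxide were followed in cell fractions of the mouse brain. The genes were the metallothioneins *Mt1*, *Mt2* and *Mt3*, the peroxiredoxins *Prdx1*, *Prdx5* and *Prdx6*, the glutathione peroxidases *Gpx1* and *Gpx4*, the superoxide dismutase *Sod1* and the catalase *Cat*. They were chosen by name, and the counts of their 43 transcripts were summed to 10 of the 35960 genes in the table. RNA came from astrocyte, microglia and neuronal fractions that were taken one after the other from brains of mice at the age of 10 months. The mice were wild type (WT) or *Atxn2*-CAG100-KIN, which carry on both alleles an expanded CAG repeat inserted into the mouse *Atxn2* gene, a model of spinocerebellar ataxia type 2. Both genotypes had the C57BL/6 background, no treatment was given, and each of the 6 groups (3 fractions, 2 genotypes) had 3 libraries. Per the study's methods, KIN and WT mice were littermates matched for sex, with 2 male pairs and a female pair. Sex was not part of any fit, and the pairs were not used in the main comparisons. The knockin is present in every cell type of the animal, so a change in a fraction can start in that cell type or in another. Fractions were sorted with magnetic beads (CD11b for microglia, ACSA-2 for astrocytes, removal of other cells for neurons) after enzymatic dissociation. Since the libraries are bulk samples, fewer cells of a type and less RNA per cell cannot be told apart.

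Metallothioneins are small cysteine-rich proteins that bind zinc and copper. *Mt1* and *Mt2* are induced by metals through the metal-sensing transcription factor encoded by *Mtf1*, and also by glucocorticoids through their receptor, whereas *Mt3* is the form enriched in brain and responds little to metals. Peroxiredoxins reduce peroxides with a reactive cysteine: *Prdx1* is cytosolic, *Prdx5* is found in mitochondria, peroxisomes and cytosol, and *Prdx6* also acts on oxidised phospholipids. *Gpx1* and *Gpx4* are selenium enzymes that use glutathione. *Gpx1* reduces soluble peroxides, and *Gpx4* reduces lipid peroxides in membranes and thereby prevents ferroptosis. *Sod1* turns superoxide into hydrogen peroxide with copper and zinc in its structure, and *Cat* breaks down hydrogen peroxide in peroxisomes. Astrocytes are known as the main store of metallothionein and glutathione in brain.

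The 3 metallothionein genes lie next to each other on the plus strand of chromosome 8 in GRCm39. *Mt3* (ENSMUSG00000031760) spans chr8:94879220-94881088, *Mt2* (ENSMUSG00000031762) chr8:94898819-94900207 and *Mt1* (ENSMUSG00000031765) chr8:94905710-94906955, and the starts of *Mt2* and *Mt1* are 6891 bases apart. Their promoters are shown because the shares of these 3 genes are compared between genotypes in the results that follow. The sequences are those of RefSeq in GRCm38.p6, from 250 bases before to 50 bases after the RefSeq start, 5′ to 3′. Capitals mark the metal response element core, searched as TGCACNC or TGCGCNC on both strands, so a match on the minus strand appears as its reverse complement.
*Mt1*, chr8:94178839-94179138, plus strand: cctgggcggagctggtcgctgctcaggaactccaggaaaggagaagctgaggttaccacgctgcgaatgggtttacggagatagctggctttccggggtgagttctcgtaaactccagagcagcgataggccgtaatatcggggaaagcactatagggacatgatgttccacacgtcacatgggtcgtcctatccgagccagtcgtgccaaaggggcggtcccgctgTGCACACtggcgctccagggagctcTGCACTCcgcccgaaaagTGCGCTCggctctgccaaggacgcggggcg
*Mt2*, chr8:94172368-94172667, plus strand: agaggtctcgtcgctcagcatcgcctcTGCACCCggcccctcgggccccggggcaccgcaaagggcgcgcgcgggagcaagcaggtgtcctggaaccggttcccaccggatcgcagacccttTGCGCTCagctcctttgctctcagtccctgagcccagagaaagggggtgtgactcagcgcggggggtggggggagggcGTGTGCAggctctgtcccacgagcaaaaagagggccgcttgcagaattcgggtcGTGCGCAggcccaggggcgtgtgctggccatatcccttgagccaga
*Mt3*, chr8:94152357-94152656, plus strand: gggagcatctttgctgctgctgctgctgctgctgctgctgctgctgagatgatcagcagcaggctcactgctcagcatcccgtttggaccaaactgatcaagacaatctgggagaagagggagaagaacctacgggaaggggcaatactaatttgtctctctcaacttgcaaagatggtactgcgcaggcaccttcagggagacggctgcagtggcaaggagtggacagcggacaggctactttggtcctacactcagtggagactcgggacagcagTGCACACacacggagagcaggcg
Each sequence matched GRCm39 exactly at 1 place, at chr8:94905467-94905766 for *Mt1*, chr8:94898996-94899295 for *Mt2* and chr8:94878985-94879284 for *Mt3*. The *Mt2* window lies wholly inside the *Mt2* span given above. The RefSeq start used for it is therefore not the gene start behind the distance of 6891 bases. The transcripts *Mt1*-202 (start chr8:94905869) and *Mt2*-202 (start chr8:94899488) begin after the end of their windows. Bases next to those starts were not searched, so the matches are those of the windows only. *Mt1* held 3 matches, *Mt2* 4 and *Mt3* 1, and in *Mt3* the match lay 28 bases after the start. Of 32851 mouse promoters of the same length, 25.7% held at least 1 match, 1.97% held at least 3 and 0.517% at least 4. The antioxidant response element core, searched as TGACNNNGC on both strands, was present in 12.4% of these promoters. It occurred once each in *Mt2*, *Prdx1* and *Sod1* and was not found in the windows of *Mt1*, *Mt3*, *Prdx5*, *Gpx1*, *Cat* or the 4 windows of *Gpx4*. A window for *Prdx6* was not used here. These matches describe letters and are not evidence of binding.

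The libraries held between 761481 and 3296398 counts, of which the 10 most abundant transcripts took 75.8% to 85.4%. The 10 genes together received 542 to 845 counts in astrocyte libraries, 188 to 272 in microglia and 32 to 117 in neurons. WT neuronal libraries were shallower (761481 to 1017972 counts) than KIN neuronal libraries (1473194 to 2017932 counts), so genotype and depth cannot be told apart there. Levels are given in CPM, counts relative to library size after TMM scaling over the 18 libraries, and 3 counts, taken as the floor, corresponded to 0.864 to 1.53 CPM in glial and to 1.93 to 4.05 CPM in neuronal libraries. The summed level of 6 astrocyte markers (*Aqp4*, *Gfap* and others) was 192 to 425 CPM in astrocytes, 13.5 to 16.6 CPM in microglia and 5.42 to 9.83 CPM in neurons. Of 6 microglia markers, the sum was 434 to 744 CPM in microglia and at most 11.4 CPM elsewhere. Of 7 neuron markers, the sum was 95.7 to 164 CPM in neurons and reached 103 CPM in astrocytes, and 3 of the 7 were called lower in neurons than in astrocytes, so the neuronal label rests on part of the list. Markers of red blood cells summed to 112 to 519 CPM in neurons and 2.48 to 23.7 CPM in the glial fractions. Markers of choroid plexus and ependyma summed to 148 to 450 CPM in neurons, more than the neuron markers in each of the 6 libraries, with *Ttr* called higher than in microglia (log2FC 2.23). *Ttr* dominates this sum, with 5139 counts over all libraries beside 241 for *Foxj1* and 249 for *Ccdc153*. Against astrocytes 1 of the 3 genes was called higher in neurons and 2 lower, *Ccdc153* (log2FC -3.89) and *Foxj1* (-2.91). The sum therefore does not stand for each gene. Oligodendrocyte markers summed to 253 to 408 CPM in astrocytes and 7.95 to 23.6 CPM in microglia. In KIN astrocytes their sum (359 to 378 CPM) exceeded that of the astrocyte markers (192 to 205 CPM). All 5 were called higher in astrocytes than in microglia and lower in neurons than in astrocytes. Neuronal WT replicate 2 stood apart with oligodendrocyte markers at 249 CPM, against 11.0 to 25.6 CPM in the other neuronal libraries. Microglia WT replicate 2 had the lowest TMM factor, 0.612, and the largest sum of microglia markers.

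**Figure D1:**
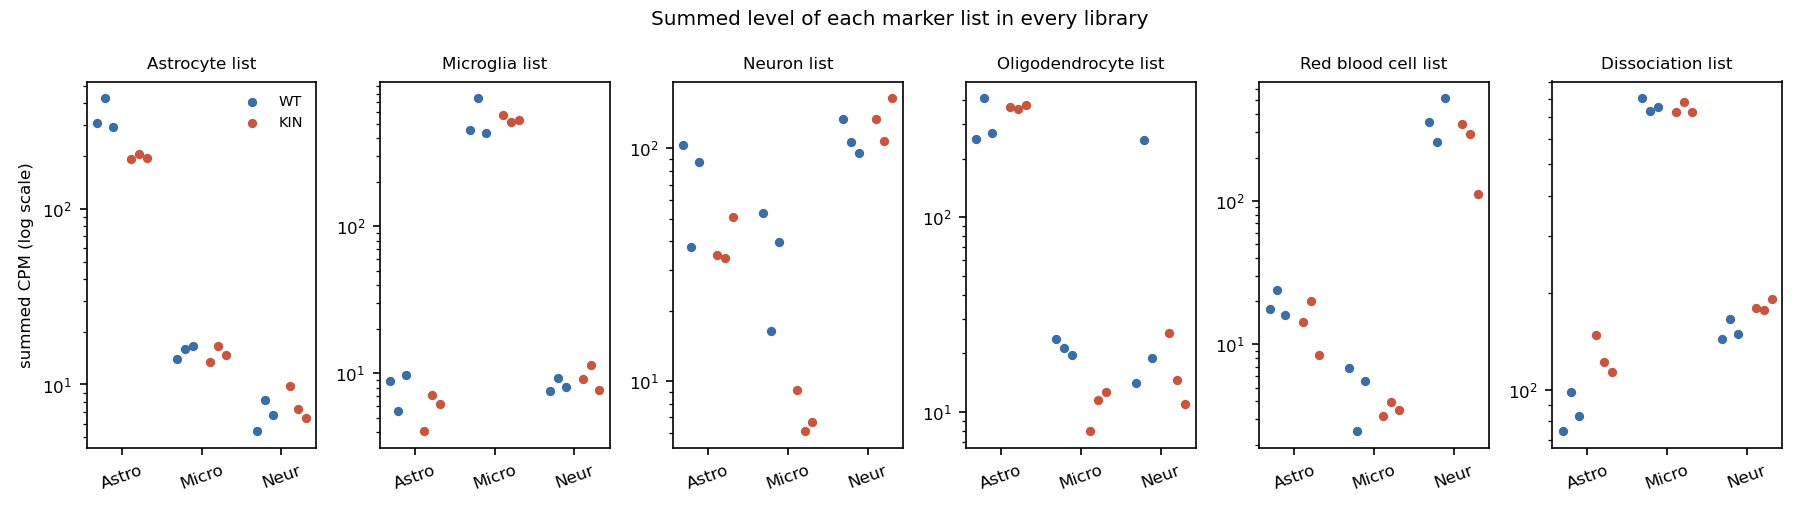
Summed CPM (log scale) of 6 gene lists in every library, by fraction, with WT in blue and KIN in red. Astrocyte markers were lower in KIN astrocytes (192 to 205 CPM) than in WT astrocytes (292 to 425 CPM), and neuronal WT replicate 2 held 249 CPM of oligodendrocyte markers.

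The first question was in which fraction each gene is found. Each of the 3 metallothioneins was far higher in astrocytes than in the other fractions. The oligodendrocyte markers were also higher there, and the part of those cells in the astrocyte values was not tested. In astrocytes *Mt1* ranged from 32.2 to 59.8 CPM with a median of 38.5 CPM over 6 libraries. In microglia it ranged from 3.58 to 9.69 CPM (median 5.46 CPM) and in neurons from 0 to 3.28 CPM, with 5 of 6 neuronal libraries at 3 counts or fewer. No library of another fraction reached the astrocyte range, and the microglia range lay above the neuronal one. *Mt1* was 7.03-fold higher in astrocytes than in microglia (log2FC 2.81 ± 0.22 SE, adjusted *p* = 2.20e-23, edgeR) and lower in neurons than in microglia (log2FC -2.40 ± 0.49, adjusted *p* = 2.79e-05). The latter was not called in WT libraries alone (adjusted *p* = 0.0539) or with single transcripts (log2FC -1.36, adjusted *p* = 0.165).

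*Mt2* ranged from 18.8 to 42.3 CPM in astrocytes (median 20.5 CPM), from 0 to 2.13 CPM in microglia and from 0 to 1.03 CPM in neurons. All 6 neuronal libraries and 4 of 6 microglia libraries had 3 counts or fewer. The log2FC of astrocytes against microglia was 4.69 ± 0.31 (adjusted *p* = 1.52e-27), and *Mt2* was at least 8.74-fold lower in neurons than in astrocytes. *Mt3* ranged from 45.2 to 74.7 CPM in astrocytes (median 64.3 CPM), from 1.08 to 5.11 CPM in microglia and from 0 to 11.3 CPM in neurons. The astrocyte range again overlapped neither of the others, and microglia and neurons overlapped. The log2FC of astrocytes against microglia was 4.67 ± 0.26 (adjusted *p* = 1.62e-34), and that of neurons against astrocytes was -4.01 ± 0.28 (adjusted *p* = 7.35e-26). The highest neuronal *Mt3* value, 11.3 CPM, belonged to WT replicate 2, the library with high oligodendrocyte markers, and the part of those cells in it was not tested.

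Microglia held 8.46% of the astrocyte level of *Mt1* in WT and 23.6% in KIN, while the astrocyte marker list stood at 4.55% and 7.58% of its astrocyte level. For *Mt2* the share was 5.38% in WT and 2.43% in KIN, and for *Mt3* it was 6.68% and 2.16%. The list is an uneven yardstick, since *Slc1a3* alone held a mean of 9.88 of its 15.5 CPM in WT microglia and 11.2 of 14.9 CPM in KIN microglia, and the other genes stood at lower shares of their astrocyte levels. The part of astrocyte RNA in these microglia values was not tested.

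**Figure D2:**
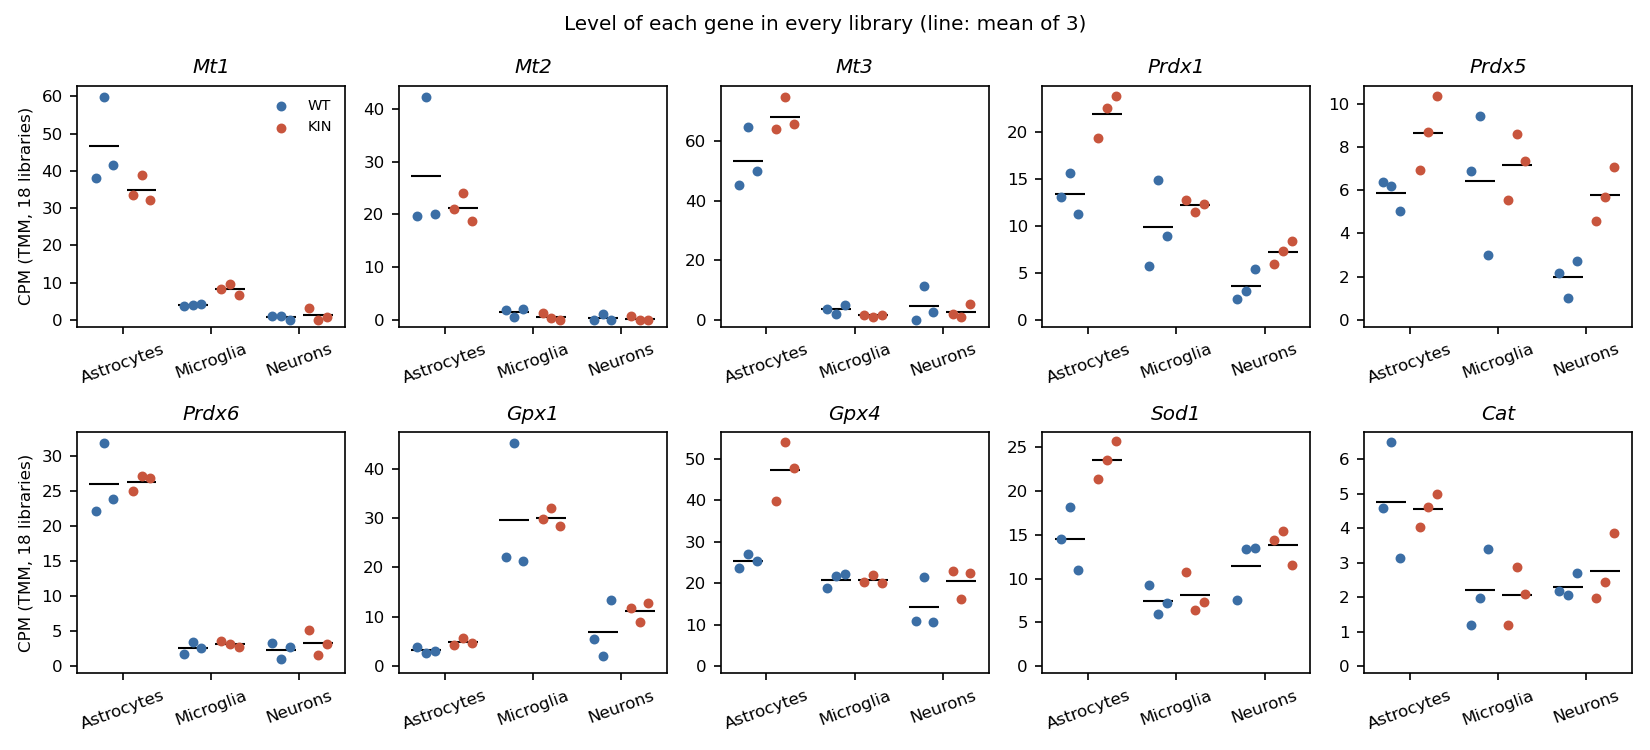
Level of each gene in CPM (linear axis) in every library, with WT in blue, KIN in red and the mean of 3 libraries as a line. The metallothioneins and *Prdx6* were highest in astrocytes, *Gpx1* in microglia, and *Gpx4* in KIN astrocytes.

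The peroxiredoxins did not share a pattern. *Prdx6* followed the metallothioneins, with 22.3 to 31.9 CPM in astrocytes (median 26.0 CPM), 1.79 to 3.58 CPM in microglia and 1.03 to 5.24 CPM in neurons. Its astrocyte range overlapped no other, with a log2FC of 3.19 ± 0.24 against microglia (adjusted *p* = 3.37e-24), and microglia and neurons did not differ beyond their spread. *Prdx1* ranged from 11.3 to 23.8 CPM in astrocytes, from 5.67 to 14.9 CPM in microglia and from 2.17 to 8.38 CPM in neurons. These ranges overlapped from each fraction to the next, yet neurons were lower than astrocytes (log2FC -1.77 ± 0.29, adjusted *p* = 1.32e-07) and than microglia (-1.10 ± 0.31, adjusted *p* = 0.00282). *Prdx1* was higher in astrocytes than in microglia by a log2FC of 0.67 ± 0.20 (adjusted *p* = 0.00409), but by 0.46 (adjusted *p* = 0.347) in WT libraries alone. With its transcript of the highest mean alone the log2FC of astrocytes against microglia was 1.28, and this transcript took 81.0% of *Prdx1* counts in astrocytes and 55.6% in microglia. For neurons against microglia the adjusted *p* of *Prdx1* was 0.0520 in WT libraries alone and 0.0559 in KIN libraries alone. *Prdx5* was at 5.02 to 10.4 CPM in astrocytes and 2.98 to 9.43 CPM in microglia, which overlapped, and at 1.03 to 7.09 CPM in neurons. It was lower in neurons than in astrocytes (log2FC -1.07 ± 0.37, adjusted *p* = 0.0172) and than in microglia (-1.01 ± 0.38, adjusted *p* = 0.0292). Neither call was stable. Without neuronal WT replicate 2 these adjusted *p* values were 0.0705 and 0.109, in KIN libraries alone 0.217 and 0.524 (log2FC -0.60 and -0.36), in WT libraries alone 0.0944 and 0.0632, and with the replicate block 0.0541 and 0.108. The contrast with microglia was lost in 6 of 18 fits with a library left out (microglia WT replicates 1 and 2 and KIN replicate 2, neuronal WT replicates 1 and 2 and KIN replicate 1).

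Among the remaining enzymes, *Gpx1* was the microglial gene. It ranged from 21.3 to 45.1 CPM in microglia (median 29.1 CPM), from 2.05 to 13.5 CPM in neurons and from 2.60 to 5.63 CPM in astrocytes. Every microglia library lay above every other library, and *Gpx1* was 7.47-fold lower in astrocytes (log2FC -2.90 ± 0.23, adjusted *p* = 3.64e-22) and 3.42-fold lower in neurons (-1.77 ± 0.25, adjusted *p* = 1.54e-09). Neurons were above astrocytes by a log2FC of 1.13 ± 0.32 (adjusted *p* = 0.00343), with overlapping libraries, and without neuronal WT replicate 3 the value was 0.72 (adjusted *p* = 0.153). The neuronal level of *Gpx1* was 23.7% of the microglial level in WT and 37.3% in KIN, where the microglia marker list stood at 1.53% and 1.76%, and 3 of its 6 genes (*Aif1*, *Tmem119* and *P2ry12*) were at 0 counts. *Cx3cr1*, of the same list, had 3 to 10 counts in every neuronal library and was higher there than in astrocytes (log2FC 1.05, adjusted *p* = 0.0121). The other 5 genes of the list had a log2FC below 0 in that contrast, with a median of -0.99 over the list and 0 called lower. The red blood cell list, whose levels are given above, was high in the same fraction, and the part of both cell types in neuronal *Gpx1* was not tested.

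*Gpx4* was at 23.7 to 54.2 CPM in astrocytes, 18.8 to 22.1 CPM in microglia and 10.8 to 22.9 CPM in neurons. Astrocytes did not overlap with either, and the log2FC was 0.73 ± 0.18 against microglia (adjusted *p* = 0.000382) and -0.98 ± 0.21 for neurons against astrocytes (adjusted *p* = 4.93e-05). In WT libraries alone the log2FC values were 0.26 (adjusted *p* = 0.607) and -0.75 (adjusted *p* = 0.142), and in KIN libraries alone 1.18 (adjusted *p* = 1.94e-06) and -1.22 (adjusted *p* = 1.01e-05). *Sod1* was at 11.0 to 25.7 CPM in astrocytes, 7.59 to 15.4 CPM in neurons and 5.95 to 10.7 CPM in microglia. Astrocytes were above microglia with no overlap (log2FC 1.22 ± 0.21, adjusted *p* = 2.72e-07). The log2FC of neurons was -0.56 against astrocytes (adjusted *p* = 0.0454) and 0.66 against microglia (adjusted *p* = 0.0359), and neither held firmly. The adjusted *p* rose above 0.05 in 10 and 11 of the 18 fits with a library left out, up to 0.154 without neuronal WT replicate 1 and 0.113 without neuronal WT replicate 2, and it was 0.646 and 0.364 in WT libraries alone. *Cat* was low in every fraction, at 3.14 to 6.50 CPM in astrocytes, 1.19 to 3.41 CPM in microglia and 1.97 to 3.87 CPM in neurons, and 5 of 6 neuronal libraries had 3 counts or fewer. Its log2FC of astrocytes against microglia was 1.12 ± 0.34 (adjusted *p* = 0.00393), although the libraries overlapped and the adjusted *p* was 0.0926 in WT libraries alone.

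A gene was called when its adjusted *p* was at most 0.05 and its log2FC at least 1 in size. Astrocytes against microglia gave 6 of 10 members higher, against 18.2% of 13552 genes, and 1 lower, against 14.9%. In WT libraries alone *Sod1* (log2FC 0.91) and *Cat* (edgeR adjusted *p* = 0.0926) were not called. In KIN libraries alone *Gpx4* was called as well (log2FC 1.18). At the adjusted *p* alone 8 members were higher, against 22.3% of genes. The median log2FC of the members was 1.17, beside 0.02 over all genes. Neurons against astrocytes gave 6 members lower (19.3% of genes) and 1 higher (11.5%), with a median of -1.42 beside -0.27 over all genes. Neurons against microglia gave 4 members lower (17.3% of genes) and 0 higher (10.2%), with a median of -0.63 beside -0.15. The 3 contrasts share libraries, and libraries of 1 mouse in different fractions were treated as independent.

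**Figure D3:**
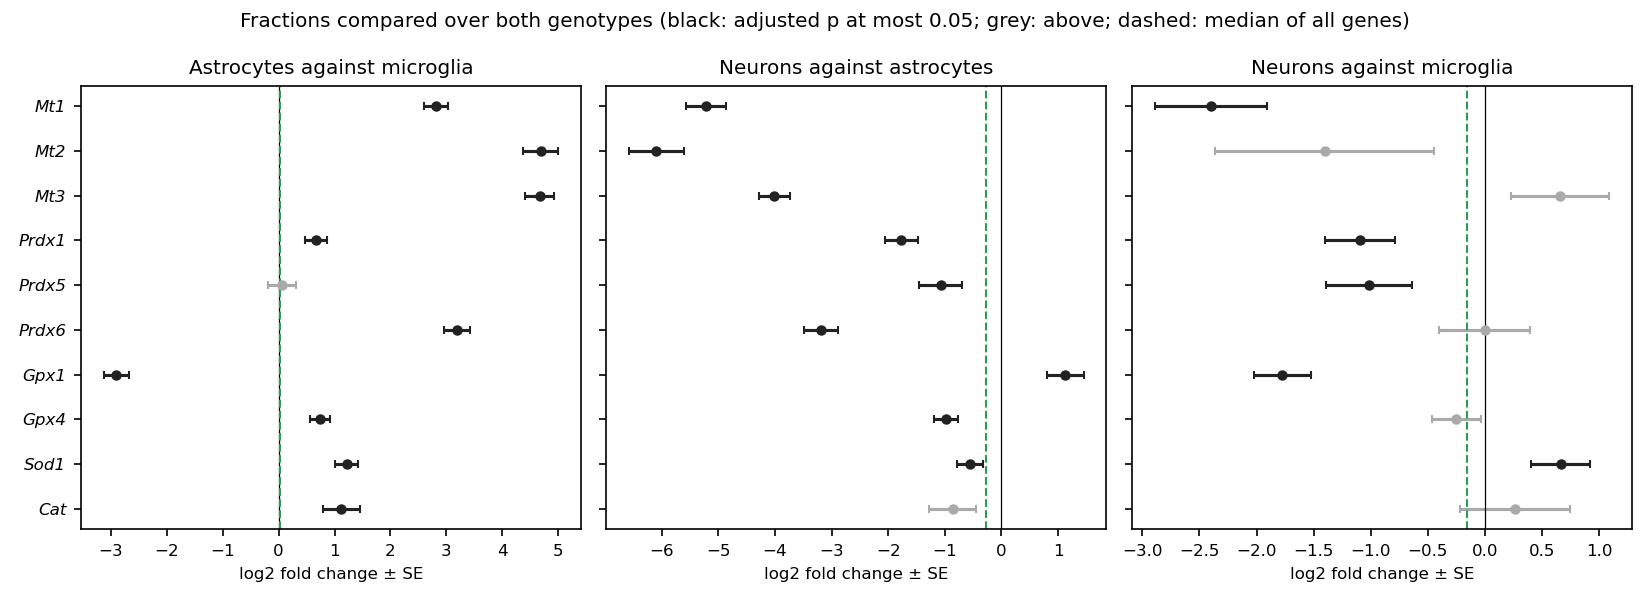
Log2 fold change with its standard error for each gene in the 3 fraction contrasts over 18 libraries, black where the adjusted *p* was at most 0.05, with the median of all genes dashed. Astrocytes exceeded microglia by 2.81 to 4.69 for the metallothioneins, and *Gpx1* lay at -2.90.

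Other genes of the same pathways were read from 4 lists. Of 20 glutathione and superoxide enzymes, 19 were tested. In astrocytes against microglia 11 were called higher (18.2% of all genes) and 1 lower (14.9%), with a median log2FC of 1.77. Its named examples were the glutathione transferases *Gstm1* (4.38 ± 0.29, adjusted *p* = 2.18e-27) and *Gstm7*, at least 3.68-fold higher. Neurons were lower than astrocytes for 9 of the 19 (19.3% of all genes) and higher for 0 (11.5%), and *Gstm1* had a log2FC of -3.88. Of 18 genes of the thioredoxin and peroxiredoxin system, 14 were tested, and 3 were higher and 1 lower in astrocytes than in microglia, with a median log2FC of -0.07, so the share called higher was near the 18.2% of all genes. The lower one was *Txnip*, which encodes an inhibitor of thioredoxin (log2FC -3.69 ± 0.21), and *Srxn1*, encoding the sulfiredoxin that repairs overoxidised peroxiredoxins, was higher (1.39 ± 0.49, adjusted *p* = 0.0162). Of 16 genes of the NRF2 axis and redox sensors, 15 were tested, with 1 higher (18.2% of all genes) and 6 lower (14.9%) in astrocytes. The transcription factor gene *Maf* had a log2FC of -3.91 and the heme oxygenase gene *Hmox1* was at least 4.09-fold lower. A list of 10 genes known to respond to dissociation (*Fos*, *Jun*, *Hspa1a* and others) summed to 729 to 803 CPM in microglia and 74.5 to 148 CPM in astrocytes. All 10 were called lower in astrocytes and in neurons than in microglia. The part of the dissociation response in the fraction contrasts was not tested. Of 12 genes of zinc and copper handling, 11 were tested, with 3 higher (18.2% of all genes), 1 lower (14.9%) and a median log2FC of -0.00. The metal exporter gene *Slc30a10* was at least 3.84-fold higher in astrocytes than in microglia. The zinc exporter gene *Slc30a1*, a known target of *Mtf1*, was lower in neurons than in astrocytes (log2FC -2.38 ± 0.61, adjusted *p* = 0.000845).

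Over the 18 libraries the genes whose log2 CPM was most like that of *Mt1* were *Lmna* (Pearson's *r* = 0.962), *Sdc4* (0.950) and *Slc1a3* (0.948). For *Mt2* they were *Ntsr2* (0.979), *Hhatl* (0.979) and *Aldoc* (0.977), and for *Mt3* they were *Cryab* (0.971), *Septin4* (0.966) and *Aatk* (0.964). *Slc1a3*, which is also in the astrocyte list, *Ntsr2* and *Aldoc* are known as astrocyte genes, and *Cryab* is a small heat shock protein gene that oligodendrocytes also express. These values describe libraries of 3 fractions that differ in many genes, and 13552 genes were compared. Between astrocytes and microglia 4494 of these genes were called, for neurons against astrocytes 4171 and for neurons against microglia 3733.

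The next question was what the *Atxn2* expansion changed within each fraction. In astrocytes no member was called by edgeR or by DESeq2, and edgeR called 8.84% of 11751 genes in either direction. At the adjusted *p* alone *Gpx4*, *Prdx1* and *Sod1* rose in KIN, 3 of 10 members against 4.33% of genes, and 0 members fell, against 7.55%. At an unadjusted *p* of 0.05 these 3 were higher and *Mt1* was lower, beside 1225 genes higher and 1702 lower of the 11751. *Gpx4* was at 23.7, 27.0 and 25.4 CPM in the WT libraries and at 39.8, 54.2 and 47.9 CPM in the KIN libraries. The genotypes were fully separated, and the rise was 1.83-fold (log2FC 0.87 ± 0.21, adjusted *p* = 0.00374). It stayed at an adjusted *p* of at most 0.0342 when any library was left out, and with the single transcript of the highest mean in place of the sum it was 0.0507 at a log2FC of 0.80.

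*Prdx1* was at 13.1, 15.6 and 11.3 CPM in WT astrocytes and at 19.3, 22.5 and 23.8 CPM in KIN astrocytes. *Sod1* was at 14.5, 18.2 and 11.0 CPM in WT and at 21.3, 23.5 and 25.7 CPM in KIN. Neither gene overlapped between genotypes. *Prdx1* rose 1.61-fold (log2FC 0.69 ± 0.23, adjusted *p* = 0.0411) and *Sod1* 1.59-fold (0.67 ± 0.23, adjusted *p* = 0.0472). Both stood near the threshold. Without WT replicate 3 the adjusted *p* was 0.206 for *Prdx1* and 0.287 for *Sod1*, and with DESeq2 it was 0.140 and 0.155. *Prdx1* also failed without WT replicate 1, KIN replicate 2 or KIN replicate 3 (up to 0.175), and *Sod1* without WT replicate 1 or any KIN replicate (up to 0.195).

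*Gpx1* and *Prdx5* were also separated by genotype in astrocytes but did not pass the test. *Gpx1* spanned 2.60 to 3.89 CPM in WT and 4.32 to 5.63 CPM in KIN (log2FC 0.55 ± 0.37, adjusted *p* = 0.377). *Prdx5* was at 6.36, 6.18 and 5.02 CPM in WT and 6.91, 8.70 and 10.4 CPM in KIN (log2FC 0.53 ± 0.30, adjusted *p* = 0.273). Thus 5 of 10 members had every KIN library above every WT library, where 13.8% of all genes tested had. The median log2FC of the members was 0.43, beside 0.00 over all genes.

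No metallothionein passed the test in astrocytes. *Mt1* was at 38.1, 59.8 and 41.7 CPM in WT and at 33.4, 38.9 and 32.2 CPM in KIN, with an overlap of 1 KIN library (log2FC -0.44 ± 0.22, adjusted *p* = 0.190). *Mt2* was at 19.8, 42.3 and 20.1 CPM in WT and at 21.0, 24.0 and 18.8 CPM in KIN (-0.39 ± 0.24, adjusted *p* = 0.330). *Mt3* was at 45.2, 64.7 and 49.9 CPM in WT and at 64.0, 74.7 and 65.6 CPM in KIN (0.33 ± 0.21, adjusted *p* = 0.330). WT replicate 2 was the highest WT library for 8 of the 10 members, *Mt1*, *Mt2* and *Mt3* among them. Without it the log2FC of *Mt2* was 0.06 and that of *Mt1* was -0.23. The WT and KIN means (± SD, n = 3) of *Prdx6* were 26.0 ± 5.15 and 26.3 ± 1.12 CPM, and those of *Cat* were 4.74 ± 1.69 and 4.54 ± 0.479 CPM.

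Other values moved with genotype in the astrocyte fraction. The astrocyte markers were lower in KIN, 192 to 205 CPM against 292 to 425 CPM, with 2 of 6 called lower, while *Gfap* of the same list passed the adjusted *p* alone as higher (mean 9.75 CPM in WT and 17.1 CPM in KIN). The neuron markers summed to 33.8 to 50.6 CPM in KIN and 37.7 to 103 CPM in WT, with 5 of 7 called lower and 1 higher at the adjusted *p* alone. The list of 10 genes known to respond to dissociation (*Fos*, *Jun*, *Hspa1a* and others) summed to 114 to 148 CPM in KIN and 74.5 to 98.8 CPM in WT. Of its 9 tested genes 1 was called higher, and 3 were higher at the adjusted *p* alone. Oligodendrocyte markers summed to 359 to 378 CPM in KIN and 253 to 408 CPM in WT, with 1 of 5 called higher. Markers of choroid plexus and ependyma summed to 134 to 240 CPM in KIN and 91.7 to 104 CPM in WT, and 3 of 3 passed the adjusted *p* alone as higher. Relative to the astrocyte list of the same library, *Gpx4* stood at 7.59% ± 1.18 (SD, n = 3) in WT and 24.0% ± 2.94 in KIN, *Mt3* at 15.7% ± 1.23 and 34.5% ± 1.64, and *Mt1* at 13.6% ± 1.01 and 17.7% ± 1.18. The list itself was lower in KIN, so the ratio was larger in KIN for all 10 members, and ratios to the list were not tested. The part of cell composition and of the dissociation response in these changes was not tested.

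**Figure D4:**
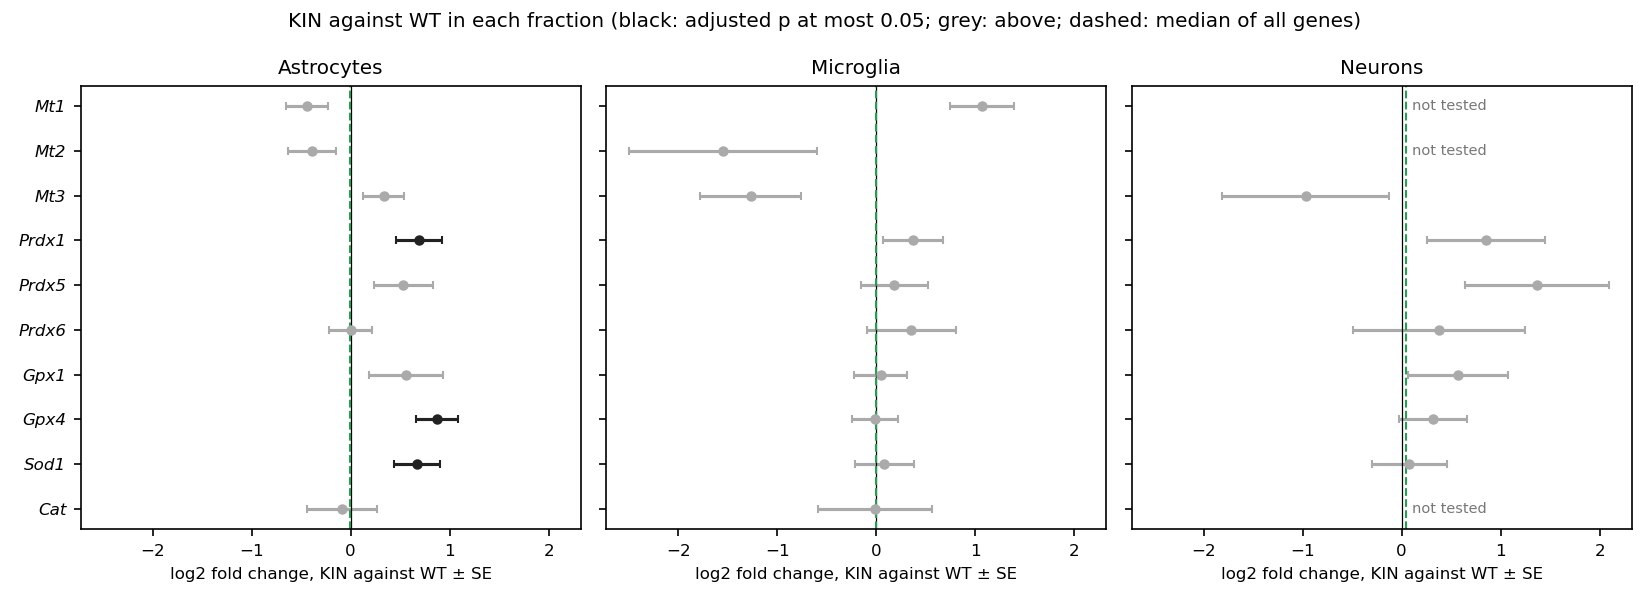
Log2 fold change of KIN against WT with its standard error for each gene in the 3 fractions, black where the adjusted *p* was at most 0.05, with the median of all genes dashed. *Gpx4* (0.87), *Prdx1* (0.69) and *Sod1* (0.67) passed in astrocytes and no gene passed in microglia or neurons.

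In the pathway lists, 3 of 14 tested genes of the thioredoxin and peroxiredoxin system were called higher in KIN astrocytes, against 2.43% of all genes, and 0 lower, against 6.42%. The median log2FC of the list was 0.45 beside 0.00 over all genes. They were *Srxn1* (log2FC 1.48 ± 0.47, adjusted *p* = 0.0281), *Txnip* (1.05 ± 0.34, adjusted *p* = 0.0306) and *Txn1*, the gene of cytosolic thioredoxin (1.70 ± 0.59, adjusted *p* = 0.0485). *Srxn1* had 3 to 6 counts in WT and 9 to 15 in KIN, and *Txn1* 1 to 4 in WT and 6 to 11 in KIN, so both rest on few reads. *Txn1* passed the filter on low counts only through KIN libraries. Its direction is therefore tied to the filter, and the count of 3 includes it. *Txnip* encodes an inhibitor of thioredoxin, so the genes that rose do not act in 1 direction. Of 14 tested genes of the NRF2 axis and redox sensors, 1 was called higher and 0 lower. It was *Park7*, the gene of the redox-sensitive protein DJ-1, with means of 8.82 ± 0.693 (WT) and 20.7 ± 3.97 CPM (KIN; SD, n = 3; log2FC 1.20 ± 0.25, adjusted *p* = 0.000637). Of 18 glutathione and superoxide enzymes and 10 genes of zinc and copper handling, 0 were called by edgeR.

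In microglia no member was called, against 1.52% of 10831 genes, and 0 passed the adjusted *p* alone. At an unadjusted *p* of 0.05 there were 1 higher and 1 lower, *Mt1* and *Mt3*, beside 670 genes higher and 634 lower of the 10831. *Mt1* was at 3.58, 3.97 and 4.26 CPM in WT microglia (12, 8 and 10 counts) and at 8.34, 9.69 and 6.66 CPM in KIN microglia (21, 27 and 19 counts). The 3 KIN libraries lay above the 3 WT libraries, with a log2FC of 1.07 ± 0.32 and an adjusted *p* of 0.0917, which ranged from 0.0922 to 0.336 over the other settings that gave one and from 0.0663 to 0.387 with a library left out. *Mt3* was at 3.58, 1.98 and 5.11 CPM in WT (12, 4 and 12 counts) and at 1.59, 1.08 and 1.75 CPM in KIN (4, 3 and 5 counts). The libraries did not overlap, and the log2FC was -1.27 ± 0.51 (adjusted *p* = 0.271). *Mt2* had 6, 1 and 5 counts in WT and 3, 1 and 0 in KIN, and it was tested only because 2 WT libraries passed the filter. Its sign is therefore tied to the filter, and no metallothionein passed the test in microglia.

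The enzymes showed smaller differences between genotypes in microglia. *Gpx1* was at 22.1, 45.1 and 21.3 CPM in WT and at 29.8, 31.9 and 28.4 CPM in KIN (log2FC 0.05 ± 0.27). The WT spread came from replicate 2, and without it the log2FC was 0.46 (adjusted *p* = 0.260). The WT and KIN means (± SD, n = 3) were 20.9 ± 1.83 and 20.7 ± 1.03 CPM for *Gpx4*, for *Sod1* 7.48 ± 1.67 and 8.18 ± 2.25 CPM, and for *Prdx1* 9.83 ± 4.67 and 12.2 ± 0.622 CPM. *Prdx5* was at 6.43 ± 3.25 and 7.18 ± 1.53 CPM, *Prdx6* at 2.61 ± 0.842 and 3.20 ± 0.386 CPM, and *Cat* at 2.19 ± 1.12 and 2.06 ± 0.841 CPM, each overlapping. Of all genes, 16.0% had no overlap between the microglia genotypes, and 2 of 10 members had none. No gene of the 4 pathway lists was called by edgeR, of 11, 10, 15 and 9 tested. Neuron markers summed to 6.10 to 9.14 CPM in KIN microglia and 16.4 to 52.6 CPM in WT microglia, with 3 of 7 called lower. Oligodendrocyte markers summed to 7.95 to 12.6 CPM in KIN and 19.6 to 23.6 CPM in WT, lower in KIN with no overlap as was *Mt3*, with 0 of 3 tested genes called. Of 3 endothelial genes 1 was called lower, *Cldn5* (log2FC -2.12). Of 10 genes of the dissociation list 1 was called lower and 0 higher, *Hspa1a* (log2FC -1.37, edgeR adjusted *p* = 0.0133). Border macrophage markers summed to 7.55 to 10.4 CPM in KIN and 3.47 to 5.96 CPM in WT, and the astrocyte markers to 13.5 to 16.5 and 14.0 to 16.6 CPM. Within that list *Slc1a3* had means of 9.88 (WT) and 11.2 CPM (KIN), *Gja1* of 3.25 and 1.95 CPM and *Aqp4* of 0.729 and 0.120 CPM, so its sum does not stand for each gene. The part of the other cell types in these values was not tested.

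In neurons 7 of 10 members passed the filter on low counts and 0 were called, against 0.0739% of 6765 genes. *Mt1*, *Mt2* and *Cat* did not pass. *Prdx1*, *Prdx5* and *Prdx6* passed only through KIN libraries. No member had an unadjusted *p* of 0.05 or less, beside 180 genes higher and 161 lower of the 6765. DESeq2 called 0 members and 0 genes. The WT libraries had 2, 1 and 2 counts of *Prdx5*, and the KIN libraries 7, 7 and 11. The mean KIN level of *Prdx5* was 1.67 times the mean WT floor of 3 counts, and the gene did not pass the test (log2FC 1.37 ± 0.73, edgeR adjusted *p* = 0.968). *Prdx1* was at 2.17, 3.08 and 5.39 CPM in WT and at 5.90, 7.30 and 8.38 CPM in KIN (log2FC 0.85 ± 0.59, adjusted *p* = 0.968). Both lay above WT in every KIN library, as did 11.5% of all genes, and since both entered through KIN libraries this direction is favoured by the filter. *Gpx4* was at 10.8, 21.5 and 10.8 CPM in WT and at 22.9, 16.2 and 22.6 CPM in KIN, *Gpx1* at 5.42, 2.05 and 13.5 CPM and at 11.8, 8.92 and 12.9 CPM, and *Sod1* at 7.59, 13.3 and 13.5 CPM and at 14.4, 15.4 and 11.6 CPM, each with overlap. *Mt3* had 0, 11 and 2 counts in WT and 3, 1 and 8 in KIN. The standard error of the log2FC was 0.34 to 0.87 for the 7 members, beside log2FC values of 0.67 to 0.87 for the genes that passed in astrocytes. Whether a change of that size could be detected in neurons was not tested. The dissociation list summed to 177 to 192 CPM in KIN neurons and 144 to 166 CPM in WT neurons, and its part in these values was not tested.

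Whether the effect of KIN differed between fractions was tested as an interaction over the 18 libraries, which shares libraries with the comparisons above. No member was called in microglia minus astrocytes (0.819% of genes called), in neurons minus astrocytes (0.708%) or in neurons minus microglia (0.14%). In microglia minus astrocytes *Mt1* came nearest, with a difference of 1.49 ± 0.45 on the log2 scale (edgeR adjusted *p* = 0.0876). It was called with DESeq2 (adjusted *p* = 0.0426). *Mt3* had a difference of -1.62 ± 0.60 (adjusted *p* = 0.214) and *Gpx4* of -0.90 ± 0.36 (adjusted *p* = 0.270). In both neuronal interactions 0 members had an unadjusted *p* of 0.05 or less. Of 13552 genes, 1247 were higher and 423 lower at that level in neurons minus astrocytes, and 972 and 334 in neurons minus microglia.

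The shares of the 3 metallothioneins among their own counts need no scaling between libraries, and they were computed with the values above known. In WT astrocytes *Mt1* took 37.0%, 35.9% and 37.4% of the metallothionein counts, and in KIN astrocytes 28.2%, 28.3% and 27.6%. *Mt3* took 43.8%, 38.8% and 44.7% in WT and 54.0%, 54.3% and 56.3% in KIN, and *Mt2* 20.8% ± 3.95 (SD, n = 3) and 17.1% ± 0.877. The KIN libraries had a smaller share of *Mt1* and a larger share of *Mt3* than every WT library. The 3 shares add up to the whole, so they do not move independently. With pooled counts the share of *Mt1* was 36.6% (95% Wilson interval 33.9% to 39.4%, of 1161 counts) in WT and 28.0% (25.3% to 30.9%, of 984 counts) in KIN, where the intervals cover counting error only. In microglia the order was opposite: *Mt1* took 40.0%, 61.5% and 37.0% in WT and 75.0%, 87.1% and 79.2% in KIN, and *Mt3* 40.0%, 30.8% and 44.4% in WT and 14.3%, 9.68% and 20.8% in KIN. A microglia library had only 13 to 31 metallothionein counts. For each of these 4 shares the two-sided exact permutation test gave *p* = 0.1, the smallest that 3 against 3 libraries allow.

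**Figure D5:**
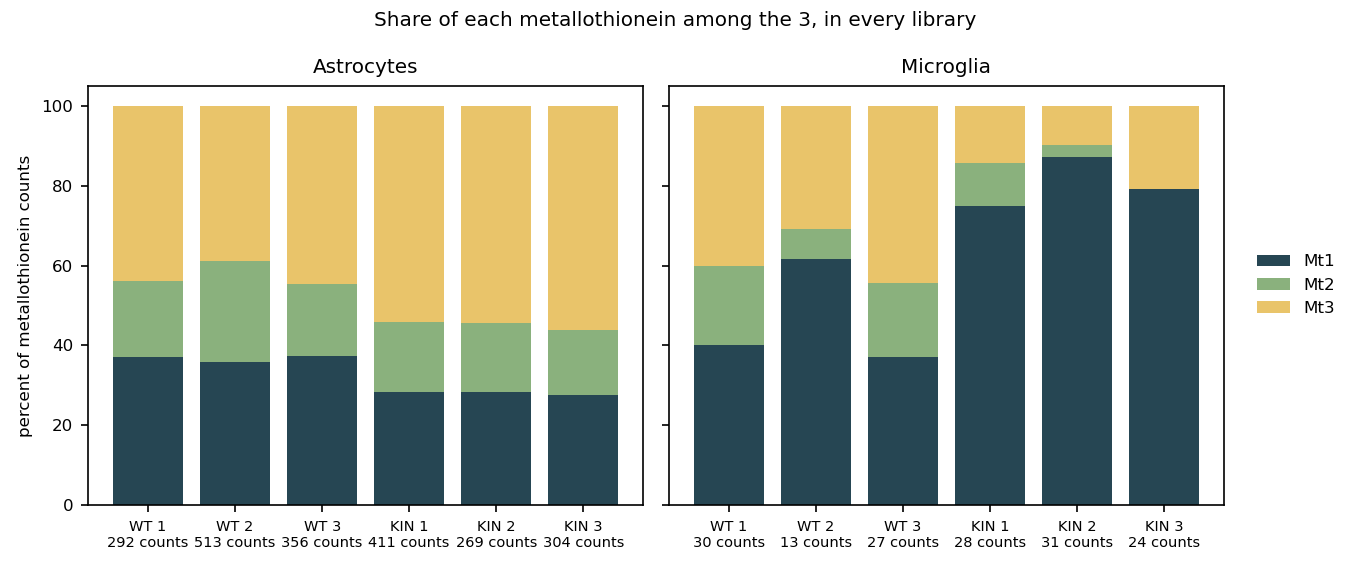
Share in percent of *Mt1*, *Mt2* and *Mt3* among the metallothionein counts of each astrocyte and microglia library, with the number of counts below each bar. The share of *Mt1* was 27.6% to 28.3% in KIN astrocytes against 35.9% to 37.4% in WT, and 75.0% to 87.1% in KIN microglia against 37.0% to 61.5% in WT.

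The member sums combine transcripts that share sequence, and the split between them depends on how reads were assigned. The 3 transcripts of *Mt1* took 36.8%, 33.4% and 29.8% of its astrocyte counts, while *Mt3*-201 took 93.8% of those of *Mt3*. *Sod1*-201 and the retained intron transcript *Sod1*-202 took 52.7% and 47.3%. *Prdx6*-208, a transcript marked for nonsense-mediated decay, took 33.1% of *Prdx6*. The pseudogene *Gpx4-ps2* had 312 counts over all libraries beside 1057 for *Gpx4*, and in astrocytes 24, 23 and 29 in WT and 47, 27 and 32 in KIN. Reads shared by *Gpx4* and this copy are uncertain. Counting ignored strand, and *Prdx5* and *Sod1* overlap *Trmt112* (134 counts) and *Scaf4* (142 counts) on the opposite strand.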

How the data were processed

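RNA of the 18 libraries was read with a method that combines 3′-end and poly-A tailing libraries with molecular identifiers. Per the study's methods and the labels, the authors removed duplicates, trimmed reads with cutadapt 4.6, mapped them in steps with Bowtie2 2.4.4 to mm39 and counted them with HTSeq 2.0.2 without strand. The deposited values used here are whole-number counts per transcript, not normalized. Reads that fit several transcripts can be split or lost in such counts. The authors' DESeq2 comparisons in the same table (fold changes and p-values) were not used, nor were 36 other columns of per-sample values. Groups came from the labels. The labels call the replicates biological. Several fractions came from 1 brain, but which libraries share a mouse is not given in the sources used here, so each was treated as independent.

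Counts were summed by gene symbol (137 transcripts without one, holding 0.0222% of counts, kept their own name). Genes that reached 5 reads in 2 or more libraries entered a fit and were tested with the quasi-likelihood test of edgeR 4.0.16 after TMM scaling, with Benjamini-Hochberg adjustment over all genes. KIN was compared with WT on the 6 libraries of a fraction, and fractions and interactions on all 18. Calls needed both an adjusted p ≤ 0.05 and a log2FC of 1 or more in size. edgeR's log2FC used a prior count of 0.125, and SEs come from the log2FC and its F. A fold against a group with at most 3 counts in every library is a bound against 3 counts per library. Shares have 95% Wilson intervals, which cover counting error only.

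All 10 members were named. From each pathway list called genes were named (up to 4 by adjusted p for KIN, up to 2 by size between fractions, leaving out those at or under the floor and some contrasts), and for each metallothionein the 3 genes of highest Pearson's r of log2 CPM with a prior count of 2. The members and lists were chosen with earlier results of these data known.

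On simulated counts with 200 genes changed by 2 on the log2 scale, 83.0% of those tested were recovered for KIN in astrocytes, 80.0% in microglia, 74.2% in neurons and 28.7% for the interaction of microglia and astrocytes. The simulated spread followed a trend over genes. Smaller changes, such as those of the members in astrocytes, were not simulated, so these shares do not apply to them. Alternatives were DESeq2 1.42.0, its size factors, scaling without the 10 most abundant transcripts or without 13 mitochondrially encoded genes, other filters, the adjusted p alone, single transcripts, other sets of libraries, the replicate number as a block, and each library left out. Figures were drawn with matplotlib 3.10.9.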

Additional observations from a re-analysis of the deposited data

Results flagged for a closer look

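The share of *Mt1* among metallothionein counts differed in direction between fractions. In astrocytes each KIN library lay below each WT library, and the mean share fell by 8.70 percentage points. In microglia each KIN library lay above each WT library, and the mean share rose by 34.2 percentage points. The share of *Mt3* changed by 12.4 percentage points in astrocytes and -23.5 in microglia, which is not a separate result, since the shares of the 3 genes add up to the whole. The difference between the fractions was not tested on these shares. The microglia shares rest on 13 to 31 counts in each library, those of astrocytes on 269 to 513.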

How the results depend on the processing

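Of 486 member values under alternatives other than leaving out a library, 442 kept their direction and their side of an adjusted p of 0.05, whatever the fold, 35 rose above 0.05, 1 came below it and 8 changed sign. With 1 library left out these numbers were 567 of 624, 38, 0 and 19. The cause of these changes was not tested. For KIN in astrocytes, 0 members were called and 3 passed the adjusted p alone. The 4 calls of neurons against microglia became 2 with a mean of at least 10 counts, 1 with single transcripts, 1 in WT libraries only, 2 in KIN libraries only and 2 to 4 with a library left out (2 without microglia WT replicate 2 or neuronal WT replicate 1). DESeq2 called 1 member in the interaction of microglia and astrocytes.

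The log2FC of *Prdx6* in astrocytes (-0.00) was 0.00286 without the 10 most abundant transcripts, 0.00191 without mitochondrially encoded genes, 0.0441 with single transcripts and 0.0148 with all 18 libraries. With single transcripts *Cat* was 0.14 in astrocytes and 0.17 in microglia, and *Gpx4* was -0.46 in neurons. With a library left out, the KIN values in astrocytes ranged from -0.57 to 0.0634 for *Mt2*, -0.10 to 0.17 for *Prdx6* and -0.32 to 0.21 for *Cat*. In microglia they ranged from -0.16 to 0.46 for *Prdx5* and for *Gpx1*, -0.10 to 0.0210 for *Gpx4*, -0.15 to 0.27 for *Sod1* and -0.41 to 0.43 for *Cat*, and in neurons from -0.0253 to 0.72 for *Prdx6* and -0.17 to 0.25 for *Sod1*.

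Counts over all genes moved more. For KIN, edgeR called 1039 genes in astrocytes (DESeq2 416, 573 without WT replicate 3 to 1527 without WT replicate 2), 165 in microglia (DESeq2 48, no filter 276, mean filter 94, single transcripts 77, 453 without WT replicate 2, 35 without KIN replicate 2) and 5 in neurons (DESeq2 0, no filter 28, mean filter 0, single transcripts 1, all libraries 25, 0 to 22 with a library left out). The mean filter lowered 4494 calls between astrocytes and microglia to 1782, 4171 for neurons against astrocytes to 1854 and 3733 for neurons against microglia to 1809, and WT libraries only gave 2207 and 2084 for the last 2 contrasts. For the interactions, the mean filter gave 35 in place of 96 (neurons minus astrocytes) and 2 in place of 19 (neurons minus microglia; size factors 11, no filter 41, 12 libraries 9). With a library left out the interactions had 53 to 176 calls (microglia minus astrocytes, 111 with all), 35 to 200 and 8 to 71, the highest without astrocyte WT replicate 2 for the first pair and without microglia WT replicate 2 for the last.

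Residual correlations of libraries with the same number ran from -0.0634 to 0.209. They were 0.0641, 0.209 and 0.0979 between WT astrocytes and WT microglia, and 1 of all of them exceeded 0.1, so the numbers were not used as pairs, although some libraries may share a mouse. With a replicate block *Prdx6* in astrocytes was 0.0241, the adjusted p in neurons was 0.0714 against astrocytes and 0.0671 against microglia for *Sod1* and 0.0541 and 0.108 for *Prdx5*, members called for neurons against microglia were 3, and all genes called were 1 for KIN in neurons and 29 for neurons minus microglia. Neuronal libraries had 32 to 117 member counts, which limits what can be seen there.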
